A study of Mus musculus with 8 samples.

Results

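Microglia, the resident macrophages of the brain, were followed here through 41 genes of their surface receptors, complement proteins and lysosomal enzymes. The genes were taken by name from the deposited table of 54446 genes; 37 of the 41 held at least 1 count and 35 had enough counts to be tested. RNA-seq libraries came from 4 wild-type samples of mouse (WT, replicates 1 to 4) and from 4 homozygous Scn2agt/gt samples (HOM replicates 1 to 4). HOM mice carry a gene-trap (gt) allele on both copies of Scn2a, which encodes the neuronal sodium channel NaV1.2; a gene trap is a cassette that interrupts its host transcript. Both groups were littermates from heterozygous pairs, of the strain that the labels spell C75BL6, and adult per the series title; no drug, exact age, sex or brain region is labelled. The comparison asks how far these genes differ between mice with a severe shortage of NaV1.2 and their wild-type littermates. Sample titles carry numbers only, and whether each stands for its own animal is not said; all p-values therefore refer to the spread among these samples, which may be technical.

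Microglia depend on the receptor Csf1r and its ligands, and in the healthy brain they express a homeostatic set of genes such as Cx3cr1, P2ry12 and Tmem119. In injury or degeneration they are known to lower those genes and to raise an activation set that runs through the receptor Trem2 and its adaptor Tyrobp, together with lysosomal cathepsins. Complement C1q, which microglia make, tags synapses and debris, and C4 and C3 act after it in the classical cascade. The members were therefore read in 6 lists: complement, homeostatic, Csf1r ligands, other microglial genes, activation and lysosomal genes.

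The labels call the source neuron, yet defining microglial markers were present: C1qa and Cx3cr1 were counted in all 8 libraries. The third marker, P2ry12, was listed at 0 in all 8, as were P2ry13, Gpr34 and Irf8. Each of these 4 genes lies wholly inside another annotated gene (Med12l for P2ry12 and P2ry13, Cask for Gpr34, Gm20388 for Irf8), so their zeros are not read as absence from the cells. Itgam, 99.9% of whose span is shared with Gm49368, held 3 counts in all. Total counts ran from 27993412 to 37538988 per library, and Scn2a lay between 371 and 477 CPM in WT and between 112 and 147 CPM in HOM, where CPM is counts scaled to a common library size after TMM, a trimmed-mean factor. Choroid plexus transcripts were uneven, their mean log2 CPM running from 1.78 to 5.02 in WT and from -0.15 to 2.37 in HOM, highest in WT replicate 4. Summed over Uty, Kdm5d, Ddx3y and Eif2s3y, genes of the Y chromosome, there were 2 counts in HOM replicate 4 and 4452 to 5984 in each other library. By these counts sex was not balanced between the genotypes, with HOM replicate 4 apart from all other libraries.

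Promoter sequences show where 2 motifs known for these genes lie. PU.1, encoded by the member Spi1, is the transcription factor that defines macrophages and binds sites built on GAGGAA, and TCACGTGA is the core of the element through which TFEB-type factors act on lysosomal genes. In the 250 bases before the start (RefSeq, GRCm38.p6, both strands; no member held both motifs), GAGGAA was found in at least 1 window of 13 of the 30 members in the promoter table, beside 25.9% of all 27025 genes in it, counted the same way. By window, it was in 15 of the members' 35, beside 23.3% of all 32851. TCACGTGA was found for Ctsd and Siglech, beside 0.907% of all genes. The windows shown are those of a C1q chain, of the receptor Trem2 and of the lower receptor Axl, 5′ to 3′ on the strand of the gene, with GAGGAA or its reverse complement in capitals; they lie at chr4:136886201-136886450 (minus), chr17:48346151-48346400 (plus) and chr7:25788734-25788983 (minus).
C1qb: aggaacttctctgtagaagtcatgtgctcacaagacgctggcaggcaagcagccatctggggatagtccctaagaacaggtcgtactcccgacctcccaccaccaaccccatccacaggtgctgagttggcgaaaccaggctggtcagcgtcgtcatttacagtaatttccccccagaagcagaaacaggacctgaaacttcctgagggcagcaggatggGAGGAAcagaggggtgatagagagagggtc
Trem2: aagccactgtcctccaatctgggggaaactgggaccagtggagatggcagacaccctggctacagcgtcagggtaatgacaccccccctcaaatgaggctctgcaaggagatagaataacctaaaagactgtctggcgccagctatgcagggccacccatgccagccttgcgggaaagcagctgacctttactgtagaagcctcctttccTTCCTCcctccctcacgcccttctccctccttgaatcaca
Axl: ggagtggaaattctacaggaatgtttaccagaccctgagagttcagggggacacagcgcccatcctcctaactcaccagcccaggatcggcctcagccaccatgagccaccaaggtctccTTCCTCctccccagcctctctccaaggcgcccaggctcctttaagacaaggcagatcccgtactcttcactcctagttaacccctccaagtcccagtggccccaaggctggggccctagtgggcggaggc

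The motif ended 24 bases before the start of C1qb, 34 before that of Trem2 and 124 before that of Axl. A shorter stretch shows the same motif for the neighbouring chain C1qc (chr4:136893090-136893117, minus) and the lysosomal motif in capitals for the protease gene Ctsd (chr7:142387909-142387936, minus), whose 28 bases lie in an annotated exon.
C1qc: cggcagacacTTCCTCattttggcacac
Ctsd: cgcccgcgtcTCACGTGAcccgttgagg

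Of the 35 members tested, 2 rose in HOM, both complement genes (C4b and C1qa), and 1, Axl, fell (adjusted p under 0.05 by edgeR's quasi-likelihood method, with Benjamini-Hochberg adjustment over 17395 genes). The 32 others did not pass. Calls thus made up 8.57% of the members tested, beside 5.40% of all genes tested (2.47% higher and 2.94% lower). Between WT and HOM, CPM ranges were apart at 6 members that were higher in HOM and at 1 that was lower, or 17.1% and 2.86% of the members tested, beside 6.63% and 7.47% of all genes (14.1% both ways). At an unadjusted p under 0.05, 11 members were higher and 4 lower, or 31.4% and 11.4%, beside 10.4% and 12.5% of all genes (22.9% both ways). The median log2 fold change was 0.16 over the members and 0.00 over all genes tested, with 26 members above 0 and 9 below. The share of all genes called moved with the settings: it was 5.50% with limma-voom, 5.63% with robust fitting, 5.24% with RLE and 5.14% with upper-quartile scaling, 6.50% with library totals only, 3.62% with no filter and 6.46% with a filter of 1 CPM. A replicate block gave 2.09% and 0.190% came with a covariate for choroid plexus transcripts. That covariate ran from 1.78 to 5.02 in WT and from -0.15 to 2.37 in HOM. The ranges overlapped, but the covariate went largely with genotype, so a fit that holds both cannot cleanly separate them. Without WT replicates 1 to 4 in turn it was 3.00%, 5.42%, 1.03% and 2.74%, without HOM replicates 1 to 4 in turn 1.21%, 6.74%, 1.02% and 3.14%, and without replicate 4 of both genotypes 1.93%. In bulk RNA, fewer or more cells of a type and less or more RNA per cell cannot be told apart.

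**Figure D1:**
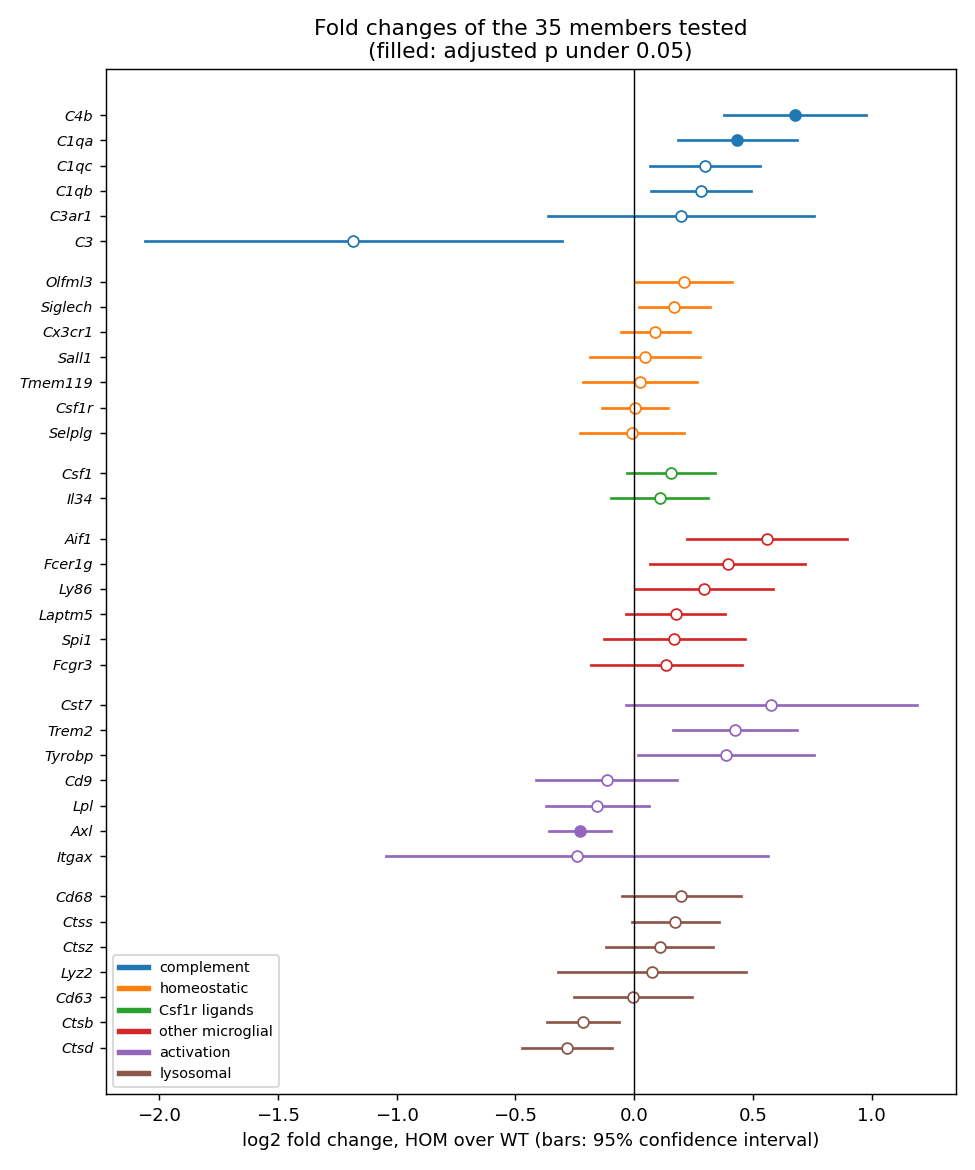
Log2 fold changes of the 35 members tested, HOM over WT, by list; points are edgeR estimates and bars their 95% confidence intervals. Filled points (C4b, C1qa and Axl) passed the threshold. The complement and other microglial lists lie mostly above 0, apart from C3. The homeostatic genes run from -0.01 to 0.21, and the bars of Siglech and Olfml3 lie above 0.

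The complement list held both members that rose, and 5 of its 6 members had a log2 fold change above 0. C4b, the mouse C4 gene that yields the opsonin C4b, stood at 19.0, 18.3, 19.9 and 29.7 CPM in WT replicates 1 to 4 and at 34.8, 32.3, 33.6 and 38.0 CPM in HOM replicates 1 to 4. Every HOM library exceeded every WT library, and WT replicate 4, also the highest in choroid plexus transcripts, stood well above the other WT libraries. The means were 21.7 ± 5.34 CPM in WT and 34.7 ± 2.43 CPM in HOM (SD, n = 4), 1.60-fold or 0.68 on the log2 scale (SE 0.14, edgeR adjusted p = 0.0196). Permuting the genotypes gave p = 0.0286 for C4b (exact, two-sided), the smallest value that 70 relabellings of 4 against 4 allow. Without WT replicate 4 the log2 fold change was 0.86 (edgeR adjusted p = 0.00091). C4b no longer passed without WT replicate 3 (edgeR adjusted p = 0.0734), HOM replicate 1 (0.0609) or HOM replicate 3 (0.0605). Its log2 fold change in those fits was 0.64, 0.68 and 0.70. With a covariate for choroid plexus transcripts, which went largely with genotype, it did not pass either (log2 fold change 0.99, SE 0.19, edgeR adjusted p = 0.0752).

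C4b (ENSMUSG00000073418, chromosome 17 from 34728380 to 34743882, GRCm38) has a near-identical copy, C4a, so reads could be split between them. C4a stood at 2.17 ± 0.284 CPM in WT and 3.24 ± 0.414 CPM in HOM (SD, n = 4), also without overlap, and did not pass (log2 fold change 0.58, SE 0.16, edgeR adjusted p = 0.0599). C4b is known to be made by oligodendrocytes and astrocytes as well as microglia. All 9 oligodendrocyte markers tested had a log2 fold change below 0, with a median of -0.29 and no call; 7 of the 9 were lower at an unadjusted p under 0.05 (edgeR), beside 12.5% of all genes. Their summed level ran from 3828 to 5724 CPM in WT and from 3288 to 4025 CPM in HOM. Of 10 astrocyte markers, the water channel gene Aqp4 fell (log2 fold change -0.40, edgeR adjusted p = 0.0417) and 9 did not pass, at a median of -0.11 and summed levels of 4897 to 5284 CPM in WT and 3970 to 4859 CPM in HOM. Aqp4 did not pass once any of replicates 1, 3 and 4 of either genotype was left out (edgeR adjusted p from 0.0700 to 0.149). No marker of either list was at 0.

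The C1q chains are the subunits of the recognition protein that starts the classical cascade, and their genes sit side by side on chromosome 4. C1qa (ENSMUSG00000036887, 136895917 to 136898803, minus strand) stood at 25.1, 35.1, 30.1 and 34.9 CPM in WT replicates 1 to 4 and at 43.0, 38.4, 38.3 and 49.2 CPM in HOM replicates 1 to 4. The groups did not overlap; WT replicate 1 was the lowest library and HOM replicate 4 the highest. Its means were 31.3 ± 4.72 and 42.2 ± 5.17 CPM (SD, n = 4), a log2 fold change of 0.44 (SE 0.12); edgeR's adjusted p was 0.04997, just inside the threshold. C1qa no longer passed without WT replicate 1 (edgeR adjusted p = 0.0938), WT replicate 3 (0.136), WT replicate 4 (0.0643), HOM replicate 1 (0.128), HOM replicate 3 (0.0863) or HOM replicate 4 (0.0934). It was lost with the choroid plexus covariate as well (log2 fold change 0.50, edgeR adjusted p = 0.292). The SE was 0.19 there, against 0.12 in the main fit. Under the same covariate the log2 fold change of C1qb was 0.22, against 0.28 in the main fit. That of C1qc was 0.35, against 0.30. Why the C1qa call was lost was not tested.

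C1qb (136880129 to 136886187) stood at 29.1, 35.4, 33.9 and 37.6 CPM in WT and 36.7, 41.7, 39.7 and 47.3 CPM in HOM, in order of replicate. Only HOM replicate 1 lay below a WT library, WT replicate 4. C1qc (136889804 to 136893065) stood at 21.1, 28.7, 25.5 and 28.2 CPM in WT and at 33.0, 29.6, 28.9 and 35.7 CPM in HOM, with no overlap by a narrow margin. Neither passed, at log2 fold changes of 0.28 (95% confidence interval 0.07 to 0.49, edgeR adjusted p = 0.106) and 0.30 (0.07 to 0.53, edgeR adjusted p = 0.118). All 3 chains were thus lowest in WT replicate 1 and highest in HOM replicate 4, the library almost without Y-linked counts. Per kb of exon, with all annotated exons joined, WT levels were 30.1 CPM for C1qa, 31.2 CPM for C1qb and 13.4 CPM for C1qc.

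Central complement component C3, which C4b helps to activate, had a log2 fold change below 0 on very few reads. Its counts were 43, 12, 21 and 21 in WT replicates 1 to 4 and 12, 16, 8 and 7 in HOM replicates 1 to 4, so that the groups overlapped and WT replicate 1 stood highest. The log2 fold change was -1.18 (SE 0.40, edgeR adjusted p = 0.105). C3ar1, the receptor for the C3a fragment, averaged 1.72 ± 0.360 CPM in WT and 1.98 ± 0.705 CPM in HOM (SD, n = 4) and did not pass (edgeR adjusted p = 0.692). Over the 6 complement members the median log2 fold change was 0.29, beside 0.00 over all genes tested.

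**Figure D2:**
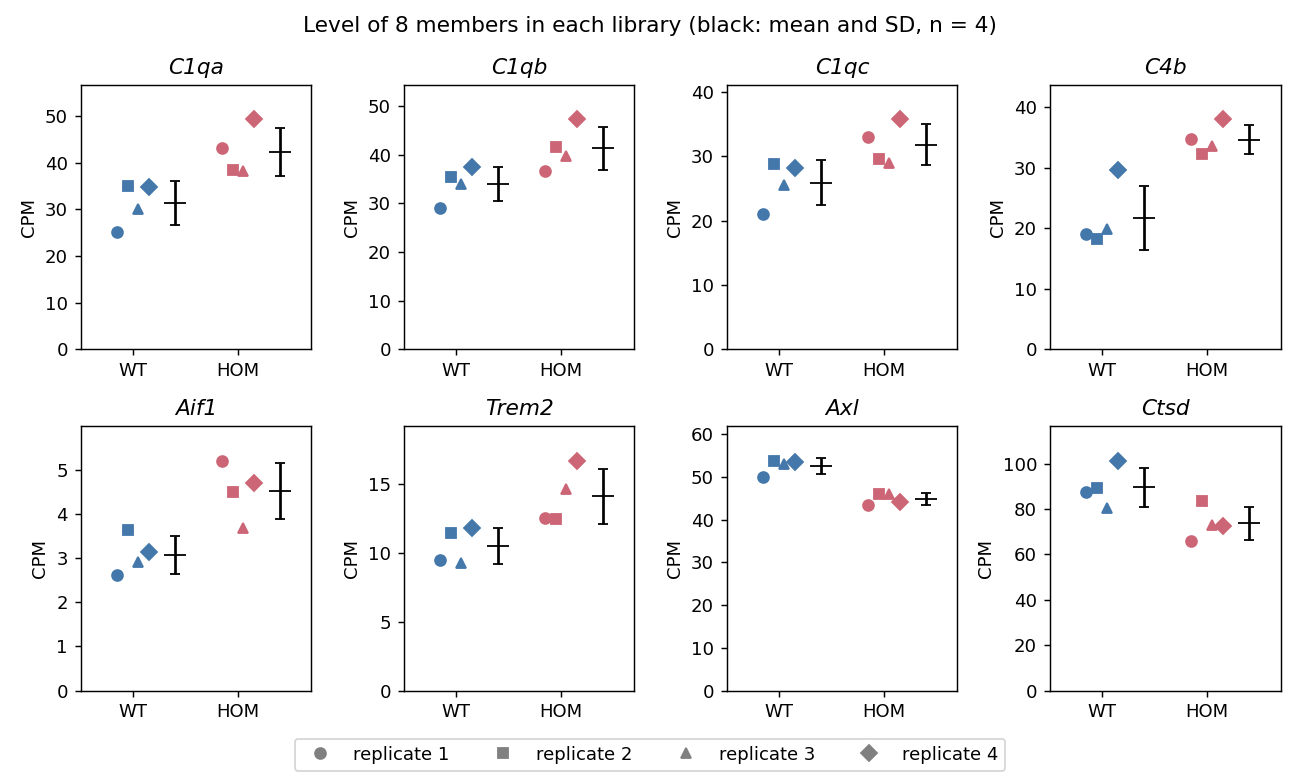
Level in CPM of 8 members in each library, with symbols for the replicate number and the mean and SD of each group in black (n = 4). C1qa, C1qc, C4b, Aif1 and Trem2 are higher in every HOM than in every WT library and Axl is lower; WT replicate 4 stands above the other WT libraries in C4b.

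None of the 7 homeostatic genes tested passed, and their median log2 fold change was 0.05 (from -0.01 to 0.21). At an unadjusted p under 0.05 (edgeR), 2 were higher (28.6%) and none lower, beside 10.4% and 12.5% of all genes. Csf1r, the receptor on which microglial survival depends, stood at 85.7, 92.7, 92.3 and 97.2 CPM in WT replicates 1 to 4 and at 87.1, 95.9, 89.7 and 96.4 CPM in HOM replicates 1 to 4. The ranges overlapped almost fully, and its log2 fold change was 0.00 (95% confidence interval -0.13 to 0.14, edgeR adjusted p = 0.973). Cx3cr1, the receptor for the neuronal chemokine fractalkine, stood at 47.0, 45.1, 44.6 and 50.8 CPM in WT and at 49.4, 51.1, 51.5 and 47.6 CPM in HOM. It did not pass (log2 fold change 0.09, interval -0.05 to 0.23, edgeR adjusted p = 0.447), and 57.4% of its annotated span is shared with other genes, which makes its level uncertain.

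Tmem119, a membrane protein gene used to tell microglia from other macrophages, averaged 21.9 ± 3.09 CPM in WT and 22.3 ± 2.47 CPM in HOM, a change of 0.02 on the log2 scale (interval -0.22 to 0.27). Sall1, a transcription factor of microglial identity, gave 0.05 (-0.19 to 0.28) and Selplg, a selectin ligand gene, -0.01 (-0.23 to 0.21). The lectin gene Siglech stood apart within this list: it held 17.4, 17.3, 16.8 and 17.4 CPM in WT and 20.3, 19.5, 18.8 and 19.0 CPM in HOM. Its groups did not overlap and both were tight, but the log2 fold change of 0.17 (SE 0.07) did not pass (edgeR adjusted p = 0.163). Olfml3, which encodes a secreted matrix protein, gave 0.21 (SE 0.09, edgeR adjusted p = 0.204) with 19.8 CPM in HOM replicate 4 and 16.3 to 16.4 CPM in the other HOM libraries.

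The Csf1r ligands did not pass. Csf1, made by glia, averaged 21.4 ± 1.99 CPM in WT and 23.8 ± 1.40 CPM in HOM, and Il34, the neuronal ligand, 49.5 ± 3.39 and 53.3 ± 7.20 CPM (SD, n = 4). Their log2 fold changes were 0.16 (95% confidence interval -0.03 to 0.34) and 0.11 (-0.10 to 0.31).

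All 6 other microglial genes tested had log2 fold changes above 0, with a median of 0.24, and none passed. Aif1, which encodes the actin-binding protein Iba1 used to stain microglia, stood at 2.62, 3.63, 2.90 and 3.14 CPM in WT replicates 1 to 4 and at 5.20, 4.50, 3.69 and 4.69 CPM in HOM replicates 1 to 4. The groups did not overlap, HOM replicate 3 lying just above WT replicate 2. The log2 fold change was 0.56 (SE 0.15), short of the threshold (edgeR adjusted p = 0.0556). Fcer1g, the signalling chain shared by Fc receptors, stood at 4.27, 6.20, 4.84 and 4.60 CPM in WT and at 6.20, 5.76, 6.14 and 7.99 CPM in HOM. WT replicate 2 reached the HOM range, and the change of 0.39 (SE 0.15) did not pass (edgeR adjusted p = 0.140). Ly86, a cofactor of a Toll-like receptor homologue, gave 0.30 (SE 0.13), the lysosomal membrane gene Laptm5 0.17 (SE 0.10), Spi1 0.17 (SE 0.14) and the Fc receptor gene Fcgr3 0.14 (SE 0.15).

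The activation list split. Trem2, the lipid-sensing receptor, stood at 9.49, 11.5, 9.24 and 11.8 CPM in WT replicates 1 to 4 and at 12.6, 12.5, 14.7 and 16.7 CPM in HOM replicates 1 to 4. Every HOM library exceeded every WT library, most of all HOM replicate 4, the library almost without Y-linked counts. Its log2 fold change was 0.43 (SE 0.12), short of the threshold (edgeR adjusted p = 0.0597). Its adaptor gene Tyrobp averaged 5.98 ± 1.21 CPM in WT and 7.79 ± 1.52 CPM in HOM (SD, n = 4), with overlap (a change of 0.39 on the log2 scale, SE 0.17, edgeR adjusted p = 0.199). The cystatin gene Cst7, with 11 to 16 counts per WT library and 17 to 26 per HOM library, gave 0.58 (SE 0.28, edgeR adjusted p = 0.245).

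Clec7a, the beta-glucan receptor dectin-1, had too few counts for the filter: 7, 3, 4 and 7 in WT replicates 1 to 4 and 12, 14, 8 and 11 in HOM replicates 1 to 4. These did not overlap. Fitted without a filter it gave 1.05 on the log2 scale and did not pass (edgeR adjusted p = 0.280). The integrin gene Itgax was as sparse, at 8 to 14 counts in WT and 7 to 13 in HOM.

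Axl, a TAM-family receptor tyrosine kinase that also occurs on other brain cells, was the 1 member that fell. The gene (ENSMUSG00000002602, chromosome 7 from 25757273 to 25788705) stood at 49.9, 53.8, 53.1 and 53.4 CPM in WT replicates 1 to 4 and at 43.3, 46.1, 45.9 and 44.1 CPM in HOM replicates 1 to 4. The groups were tight and did not overlap. The log2 fold change was -0.23 (SE 0.06, edgeR adjusted p = 0.0499; exact two-sided permutation test, p = 0.0286). The Axl call was lost with each library left out in turn, WT replicates 1 to 4 and HOM replicates 1 to 4 alike (edgeR adjusted p from 0.0612 to 0.169), and with RLE (0.0540), upper-quartile (0.0736) or total-count scaling (0.127), no filter (0.103), a filter of 1 CPM (0.0558) and the choroid plexus covariate (0.321). Its log2 fold change ran from -0.25 to -0.20 over the removals, and was -0.25 with the covariate and -0.16 with total-count scaling. Lipoprotein lipase gene Lpl (-0.15, SE 0.10) and the tetraspanin gene Cd9 (-0.12, SE 0.14), both also expressed outside microglia, did not pass. Over the 7 activation genes the median log2 fold change was -0.12 whereas the mean was 0.09.

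Among the 7 lysosomal members, none passed and the signs were mixed (median 0.08). Ctsd, the aspartic protease cathepsin D, stood at 87.5, 89.2, 80.3 and 101 CPM in WT replicates 1 to 4 and at 65.7, 83.3, 73.1 and 72.5 CPM in HOM replicates 1 to 4. Only HOM replicate 2 reached the WT range. The log2 fold change was -0.28 (SE 0.09, edgeR adjusted p = 0.0766), with 55.7% of its span shared with Gm49369. Ctsb, the cysteine protease cathepsin B, stood at 435, 466, 487 and 477 CPM in WT and at 380, 403, 380 and 445 CPM in HOM. HOM replicate 4 lay above WT replicate 1, and the change was -0.21 (SE 0.07, edgeR adjusted p = 0.0906). With DESeq2, whose calls took 12.4% of all genes, Ctsd and Ctsb were called lower beside Axl, and Aif1 and Trem2 higher beside C4b and C1qa.

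The remaining lysosomal genes lay above 0, except Cd63, just below it. Ctss, the cathepsin most typical of microglia, averaged 41.1 ± 4.50 CPM in WT and 46.4 ± 2.66 CPM in HOM (SD, n = 4), a change of 0.17 on the log2 scale (SE 0.09). The macrophage lysosomal glycoprotein gene Cd68 gave 0.20 (SE 0.12), the carboxypeptidase gene Ctsz 0.11 (SE 0.10), the lysozyme gene Lyz2 0.08 (SE 0.18) and the tetraspanin gene Cd63 -0.0032 (SE 0.11). Lyz2 has a close copy in the genome, so its level is uncertain.

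Set side by side, the median log2 fold change was 0.05 over 7 homeostatic genes and -0.12 over 7 activation genes, or 0.04 over the 14 tested activation and lysosomal genes together, beside 0.00 over all genes tested. The order of the homeostatic and the joint median depended on the libraries: they were 0.13 and -0.0090 without HOM replicate 4, 0.05 and 0.14 without HOM replicate 3, and 0.16 and 0.06 without replicate 4 of both genotypes. The joint activation and lysosomal set was wider, from -0.28 to 0.58, with 7 genes above 0 and 7 below, against -0.01 to 0.21 and 6 of 7 above 0 for homeostatic genes. By library, the mean log2 CPM of homeostatic genes was 4.79, 4.91, 4.83 and 4.93 in WT replicates 1 to 4 and 4.85, 5.00, 4.95 and 4.96 in HOM replicates 1 to 4. That of activation and lysosomal genes was 3.72, 3.93, 3.82 and 3.96 in WT and 3.86, 3.91, 3.86 and 3.99 in HOM. WT replicate 1 was the lowest library in both sets, and the genotypes overlapped in both. The C1q chains, by contrast, ran from 4.64 to 5.06 in WT and from 5.14 to 5.45 in HOM. They are 3 of the 6 complement members. The mean of all 6 overlapped, at 3.14 to 3.42 in WT and 3.30 to 3.58 in HOM. The Csf1r ligands overlapped as well (4.93 to 5.08 in WT and 5.01 to 5.23 in HOM). The other microglial members ran from 2.70 to 2.98 in WT and from 2.99 to 3.27 in HOM, apart by a narrow margin.

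**Figure D3:**
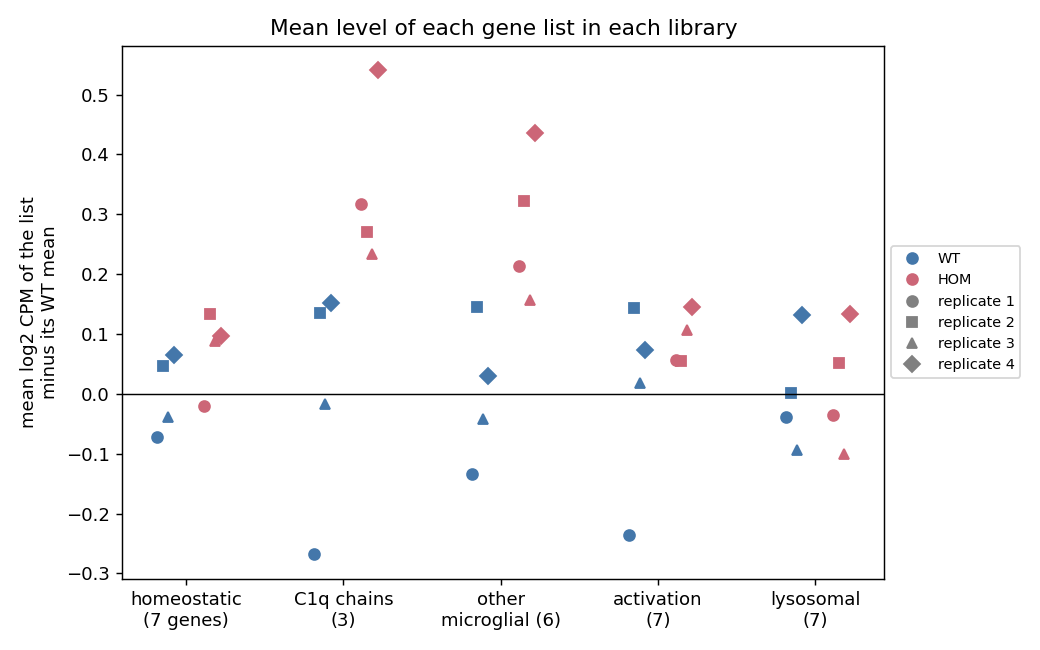
Mean log2 CPM per library of C1q chains and homeostatic, other microglial, activation and lysosomal lists, less the mean of the 4 WT libraries. Colours give the genotype and symbols the replicate number. C1q chains and other microglial genes lie higher in all 4 HOM libraries, the latter by a narrow margin. The homeostatic, activation and lysosomal lists overlap. The whole complement list and the Csf1r ligands, which also overlap, are not shown.

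Csf1r had nearly the same level in both groups, so members were also expressed per count of Csf1r in the same library, a measure chosen after the values were seen and given without a test. There were 0.293, 0.379, 0.326 and 0.358 counts of C1qa per count of Csf1r in WT replicates 1 to 4 and 0.494, 0.400, 0.427 and 0.511 in HOM replicates 1 to 4. The order of the groups was that of the CPM values, with no overlap. With Csf1r so close in both groups, the ratios largely repeat the CPM contrast and are not separate evidence. In bulk RNA such a ratio is not a level per microglial cell, since other cells may express a member too. For C4b the ratio was 0.235 ± 0.0479 in WT and 0.377 ± 0.0284 in HOM, and for Trem2 0.114 ± 0.0108 and 0.153 ± 0.0193 (SD, n = 4). Ctsb lay between 4.91 and 5.28 counts per count of Csf1r in WT and between 4.20 and 4.62 in HOM, and the ratio of Ctsd, 0.974 ± 0.0767 in WT and 0.797 ± 0.0558 in HOM, did not overlap either. The ratios of Cx3cr1 (0.510 ± 0.0314 and 0.542 ± 0.0371) and Tmem119 (0.238 ± 0.0295 and 0.241 ± 0.0192) overlapped. So did those of Tyrobp (0.0648 ± 0.0117 and 0.0845 ± 0.0166) and of C1qc, at up to 0.310 in WT and from 0.308 in HOM, although the CPM of C1qc did not overlap.

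**Figure D4:**
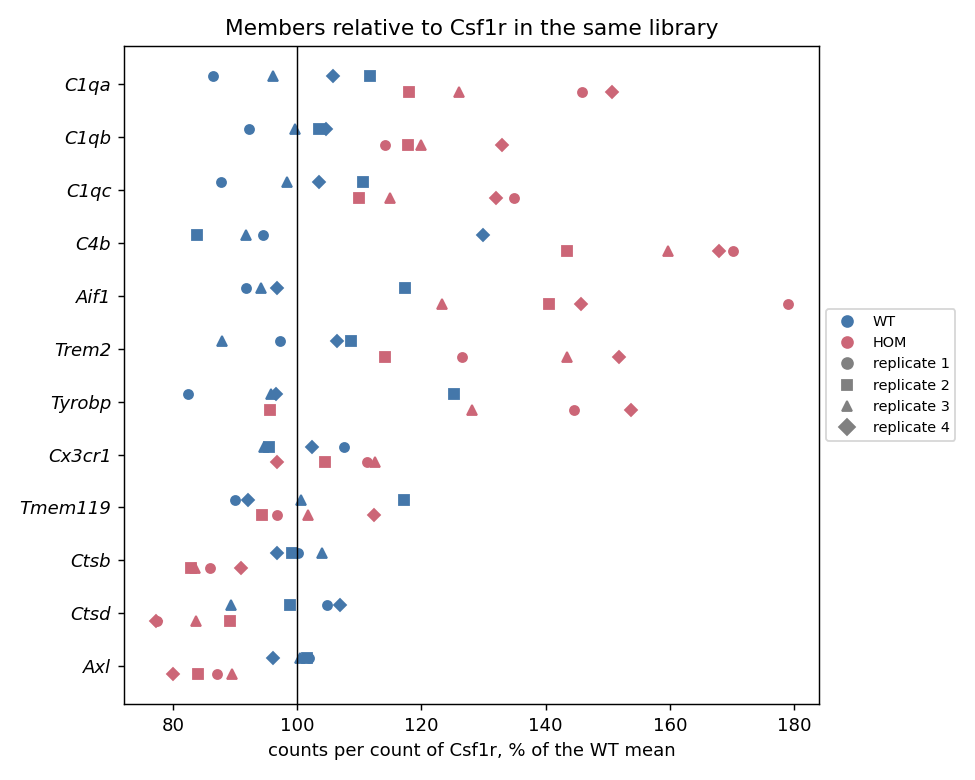
Counts of 12 members per count of Csf1r in the same library, as percent of the WT mean of that ratio; colours give the genotype and symbols the replicate number. C1qa, C1qb, C4b, Aif1 and Trem2 lie to the right in every HOM library, Ctsb, Ctsd and Axl to the left, and C1qc, Tyrobp, Cx3cr1 and Tmem119 overlap.

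Members with fewer exonic bases, counted over all annotated exons of a gene joined, tended to have the higher fold changes. Across the 35 members tested, log2 fold change and log2 exonic length had a Pearson's r of -0.41 and a Spearman's rho of -0.44, as a description over genes that share libraries. The median was 0.17 for the 17 members of at most 2695 exonic bases and 0.07 for the 18 longer ones. Over 14661 protein-coding genes the rho was -0.14, and the medians were 0.04 for the 3402 genes up to that length and -0.03 for the 11259 longer ones. C1qa has 1040 exonic bases, C4b 5695. Introns may also have been counted, so exonic length may not be the length that the reads covered. The part of length in these results was not tested.

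Of 35 further microglial genes outside the member lists, 1 rose (2.86%, beside 5.40% of all genes tested). It was the Fc receptor-like gene Fcrls, at 18.1 ± 1.39 CPM in WT and 23.0 ± 1.17 CPM in HOM (SD, n = 4). Its change was 0.35 on the log2 scale (SE 0.08, edgeR adjusted p = 0.0321). Fcrls did not pass once WT replicate 3 or 4, or HOM replicate 1, 3 or 4, was left out (edgeR adjusted p from 0.0507 to 0.0993). The median of the 35 genes was 0.03, with 21 above 0 and 14 below. Cyth4 (0.28, SE 0.09) and the transcription factor gene Runx1 (0.57, SE 0.18) did not pass.

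Of 25 other complement genes tested, 2 rose and 23 did not pass (median -0.04, mean 0.10). The calls made up 8% of the list, beside 5.40% of all genes tested. Csmd2, a member of a family of brain membrane proteins with complement-control domains, stood at 142 ± 19.5 CPM in WT and 206 ± 25.9 CPM in HOM (SD, n = 4), a change of 0.54 on the log2 scale (edgeR adjusted p = 0.0195). Csmd2 did not pass once replicate 3 of either genotype or HOM replicate 1 was left out (edgeR adjusted p from 0.0552 to 0.0651). Its relatives Csmd3 (0.40, SE 0.11, edgeR adjusted p = 0.0509) and Csmd1 (0.50, SE 0.14, edgeR adjusted p = 0.0639) did not pass. The lectin-pathway protease gene Masp2 rose on low counts, from 1.13 to 2.13 CPM (log2 fold change 0.92, edgeR adjusted p = 0.0455), with overlap between the groups, and passed only without WT replicate 2 when libraries were left out in turn (otherwise edgeR adjusted p from 0.0531 to 0.140).

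Of 23 other activation and immune genes tested, 1 rose: Csf2ra, a subunit of the GM-CSF receptor, from 24.3 ± 2.44 to 34.8 ± 5.44 CPM (SD, n = 4), a change of 0.52 on the log2 scale (SE 0.11, edgeR adjusted p = 0.0254). Csf2ra did not pass once WT replicate 1, 3 or 4, or HOM replicate 1 or 3, was left out (edgeR adjusted p from 0.0515 to 0.0854). The list's median was -0.22, and its 1 call made up 4.35% of it, beside 5.40% of all genes tested. The NF-kappaB inhibitor gene Nfkbia (-0.36, SE 0.10) and the growth factor gene Igf1 (-0.44, SE 0.15) did not pass, nor did Apoe (0.11, SE 0.12), a lipid carrier that activated microglia are known to raise. None of 16 interferon-response genes passed (median -0.16). At an unadjusted p under 0.05 (edgeR), 1 was higher and 1 lower (6.25% each), beside 10.4% and 12.5% of all genes.

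Of 42 other lysosomal genes, 1 fell, Sort1, a sorting receptor that also takes up progranulin. It went from 598 ± 30.9 to 432 ± 31.6 CPM (SD, n = 4), a change of -0.47 on the log2 scale (SE 0.07, edgeR adjusted p = 0.00533) and passed in all 8 removals. The list's median was -0.10, with 31 of 42 below 0. Its 1 call made up 2.38% of the list, beside 5.40% of all genes tested. Subunit genes of the vacuolar proton pump, Atp6v1a (-0.22, SE 0.06, edgeR adjusted p = 0.0552) and Atp6v1h (-0.19, SE 0.06, edgeR adjusted p = 0.0644), did not pass. Of 13 genes through which other cells signal to microglia, 1 fell: Cx3cl1, the neuronal ligand of Cx3cr1, from 762 ± 28.3 to 642 ± 31.3 CPM (SD, n = 4), a change of -0.25 on the log2 scale (SE 0.06, edgeR adjusted p = 0.0379). It passed only without HOM replicate 4 among the 8 removals (edgeR adjusted p up to 0.120). This call made up 7.69% of the 13 genes, beside 5.40% of all genes tested. Gas6, a ligand of Axl, gave -0.21 (SE 0.07, edgeR adjusted p = 0.0913).

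None of 7 border macrophage markers tested passed (median -0.28), nor did any of 6 blood cell markers (median -0.34). At an unadjusted p under 0.05 (edgeR), 1 border macrophage marker, Cbr2, was lower (14.3% of the 7, beside 12.5% of all genes). Summed levels ran from 10.2 to 16.8 CPM in WT and from 7.53 to 14.8 CPM in HOM for the 8 border macrophage markers, none of them at 0. For the 16 blood cell markers they ran from 60.6 to 101 CPM and from 38.2 to 113 CPM, with Alas2 at 0. Endothelial markers had a median of -0.36, with Flt1 and Abcb1a lower and 6 of 8 not passing (summed levels 204 to 256 CPM in WT and 159 to 203 CPM in HOM). Neither passed once WT replicate 1 or 3, or HOM replicate 1, 3 or 4, was left out, nor Flt1 without HOM replicate 2. Mural and fibroblast markers had a median of -0.29 with no call among 9, at summed levels of 194 to 206 CPM in WT and 149 to 178 CPM in HOM. Choroid plexus markers had a median of -2.45 with 3 of 9 lower, at 149 to 1738 CPM in WT and 18.6 to 237 CPM in HOM. Those 3, Kl, Aqp1 and Slc4a5, did not pass once WT replicate 1 or 4, or HOM replicate 2, 3 or 4, was left out, nor Kl and Aqp1 without HOM replicate 1 or Slc4a5 without WT replicate 3. Of 7 neuronal markers tested, Snap25 and Gad1 were lower (median -0.21, summed levels 9625 to 10783 CPM in WT and 8611 to 8999 CPM in HOM). At an unadjusted p under 0.05 (edgeR), 6 of 8 endothelial, 4 of 9 mural and fibroblast and 9 of 9 choroid plexus markers were lower. So were 5 of 7 neuronal and 2 of 10 astrocyte markers (20% of the latter), and no marker of these lists was higher. Of all genes, 12.5% were lower and 10.4% higher at that threshold. Calls at the adjusted threshold made up 25.0% of endothelial, 33.3% of choroid plexus, 28.6% of neuronal and 10% of astrocyte markers tested, beside 5.40% of all genes. Kcnj13 of the choroid plexus and Tubb3 of the neuronal markers, both overlapped by other genes, were listed at 0. Snap25 did not pass once replicate 3 of either genotype or HOM replicate 1 was left out. The part of these cell types in the results on the members was not tested.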

How the data were processed

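Stranded paired-end libraries were made from column-purified total RNA, per the labels' protocols. Raw counts of reads, 1 whole number per gene and library, are what the authors deposited. FastQC 0.11.3, STAR, featureCounts and edgeR with GRCm38 are named, per the submitters' processing notes; further versions, the annotation and how strand was treated were not given in the sources used here. Members nested in others, on either strand, stood at 0, so counting may have spanned gene bodies, introns included, and ignored strand. Symbols, positions and exonic lengths came from GENCODE M21 (54409 of 54446 identifiers matched).

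The test was that of edgeR 4.0.16 under R 4.3.3 (quasi-likelihood F test, TMM scaling, filterByExpr defaults, genotype only), adjusted over 17395 genes at a threshold of 0.05; log2 CPM used a prior count of 2. It was also run on counts simulated from its own fitted dispersions, without differences in sex or choroid plexus transcripts. That run does not bear on such differences between the libraries. No replicate pair agreed within sampling noise (chi-square per degree of freedom at least 7.09). Alternatives were DESeq2 1.42.0, limma-voom (limma 3.58.1), robust fitting, other scalings and filters, a replicate block, a choroid plexus covariate and leaving out libraries. The members and lists were chosen with earlier results of these data known, so no list has a test of its own. Values in every library are given for C1qa, Cx3cr1, P2ry12, the called members and those of smallest p up to 14, with up to 3 of smallest p from each other list; further members named, such as Csf1r and Clec7a, were chosen to give their values.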

Additional observations from a re-analysis of the deposited data

Results flagged for a closer look

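Among 70 sets of 4 libraries (35 members in each genotype), 6 held a library whose gap to its nearest neighbour exceeded Dixon's 95% critical share of the range; chance alone flags about 1 in 20. C4b in WT replicate 4 stood at 29.7 CPM, with 18.3 to 19.9 CPM in the other WT libraries. HOM replicate 4, the library almost without Y-linked counts, was the high library for 3 genes. They were Olfml3 at 19.8 CPM (others 16.3 to 16.4), Ctsz at 33.0 CPM (others 25.4 to 26.0) and Cd63 at 36.0 CPM (others 30.9 to 31.5). Il34 in WT replicate 2 stood at 54.6 CPM (others 47.6 to 47.9) and Lyz2 in WT replicate 1 at 6.73 CPM (others 4.08 to 4.41). No cause was tested.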

How the results depend on the processing

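Members called numbered 2 higher and 1 lower. They were 4 higher and 3 lower with DESeq2, 4 and 0 with library totals only, 1 and 0 with the replicate block, 0 and 0 with the choroid plexus covariate, and 1 and 0 without WT and HOM replicate 4 together. Lower members numbered 0 with RLE scaling, upper-quartile scaling, no filter and a filter of 1 CPM in 4 libraries. With 1 library left out, higher members ran from 0 to 3 and lower ones from 0 to 1. Leaving out WT replicate 3, HOM replicate 1 or HOM replicate 3 gave 0 of either. Of all genes, those 3 fits called 1.03%, 1.21% and 1.02%, and the covariate fit 0.190%, beside 5.40% in the main fit. Genes called in the other lists, 4 higher and 2 lower, were 8 and 10 with DESeq2 and 3 and 1 with the replicate block, and ran from 0 to 5 and from 1 to 3 with 1 library left out. The homeostatic median was 0.16 without WT and HOM replicate 4 together and ran from 0.029 to 0.13 with 1 library left out. That of activation and lysosomal genes ran from -0.0090 to 0.14. No log2 fold change of the 13 tested members with values in every library changed sign under the 19 alternatives (18 for C3). Same-numbered libraries did not deviate together (r from -0.20 to 0.05), so the numbers do not pair them; under the block the C1qa call was lost (edgeR adjusted p = 0.0670), as was that of Axl (0.121). Depth limits C3, Cst7, Itgax and Clec7a, which held at most 43 counts in any library. The causes of these differences were not tested.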
